A study of Mus musculus with 6 samples.

Results

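Leptin and insulin signalling was followed in Neuro2a cells, a mouse neuroblastoma line, through 10 genes for the receptors, their adaptors, effectors and feedback inhibitors: Lepr, Insr, Igf1r, Irs1, Irs2, Jak2, Stat3, Socs3, Ptpn1 and Foxo1. The genes were taken by symbol from the deposited count table, where all 10 had a row among 24421 gene rows. Per the labels, 3 samples received an adenovirus with a hairpin against Fam172a (ADV-shFam172a, here shFam172a) and 3 received an adenovirus with a control hairpin (ADV-shCtrl, here shCtrl). All 6 samples carry the genotype label WT, were grown in serum-containing medium and were harvested 48 h after the virus was added. The labels name no added leptin or insulin, and they do not say whether the 3 samples of a group were separate infections. The p-values of the gene fits reflect the spread among 3 samples per group, partly pooled over genes. That spread may be technical. The series title links Fam172a to energy balance and to neurons expressing Pomc, and the question addressed is what lowering Fam172a does to the transcripts of these genes.

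Leptin, a hormone of fat tissue, binds the receptor encoded by Lepr, which works through the kinase JAK2 and the transcription factor STAT3. STAT3 switches on Socs3, whose protein in turn blocks the receptor complex, and the phosphatase encoded by Ptpn1 removes phosphate from JAK2 and from the insulin receptor. Insulin and insulin-like growth factors act on the receptors encoded by Insr and Igf1r, which phosphorylate the adaptors IRS1 and IRS2 and so activate phosphoinositide 3-kinase and AKT. AKT keeps the transcription factor FOXO1 out of the nucleus. In the hypothalamus, both hormones act on neurons that make pro-opiomelanocortin, and STAT3 and FOXO1 have opposite effects on Pomc transcription.

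Stretches of 250 bases upstream of the RefSeq start sites (build GRCm38.p6) are shown for both adaptor genes, of which Irs1 was called higher and Irs2 was not called, and for Socs3, the member that was called lower. The Socs3 window lies inside the GENCODE M21 gene, which extends further upstream. Capitals mark CACGTG, the canonical E-box, in the adaptor promoters and TTCNNNGAA, the palindrome that STAT proteins bind, in the Socs3 promoter.
Irs1, chr1:82291440-82291689, minus strand: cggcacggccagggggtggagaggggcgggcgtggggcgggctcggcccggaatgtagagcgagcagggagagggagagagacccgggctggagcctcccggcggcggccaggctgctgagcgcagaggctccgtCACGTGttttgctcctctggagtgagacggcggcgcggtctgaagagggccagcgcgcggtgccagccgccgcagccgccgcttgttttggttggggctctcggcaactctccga
Irs2, chr8:11008930-11009179, minus strand: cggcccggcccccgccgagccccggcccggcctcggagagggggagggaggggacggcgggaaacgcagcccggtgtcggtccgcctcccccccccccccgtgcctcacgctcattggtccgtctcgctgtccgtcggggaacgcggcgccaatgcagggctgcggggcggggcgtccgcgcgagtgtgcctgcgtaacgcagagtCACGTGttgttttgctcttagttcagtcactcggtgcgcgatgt
Socs3, chr11:117969367-117969616, minus strand: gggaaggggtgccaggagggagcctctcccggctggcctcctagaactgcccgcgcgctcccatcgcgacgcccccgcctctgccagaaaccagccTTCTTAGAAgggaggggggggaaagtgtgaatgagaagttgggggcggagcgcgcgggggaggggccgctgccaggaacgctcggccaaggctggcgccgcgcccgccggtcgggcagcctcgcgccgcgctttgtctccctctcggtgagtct
Both strands of every window were searched for these motifs and for another pair. Of 32851 RefSeq promoter windows of the same length, 6.02% held the E-box and 7.02% held the STAT palindrome. The shorter motif ACGTG, which every E-box of this form contains and which is also found in hypoxia response elements, was in 16.6% of the windows. The FOXO core, GTAAACA, was in 3.17% of the windows. The E-box began 115 bases upstream of the Irs1 start and 44 bases upstream of the Irs2 start, and the STAT palindrome began 154 bases upstream of the Socs3 start. The FOXO core was in none of the members' windows. A match describes the letters of the window and is not a measured binding site. The windows of Lepr, Igf1r, Jak2, Stat3, Ptpn1 and Foxo1 held none of the 4 motifs, and Insr had no entry.

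Gene counts summed to between 21690467 and 23409319 per library in shFam172a and to between 11250312 and 12820531 in shCtrl, so low genes were measured less precisely in shCtrl. Levels are given as CPM, gene counts relative to library size after scaling by the trimmed mean of M values (TMM). Fam172a stood at 9.22, 8.28 and 9.22 CPM in shFam172a, against 18.6, 19.3 and 19.5 CPM in shCtrl, a log2 fold change of -1.10 ± 0.092 (SE, n = 3 each, edgeR adjusted p = 2.4e-12). Pairs assigned to no gene made up 17.2% to 17.9% of the table total in shFam172a and 16.4% to 16.6% in shCtrl. The ribosomal RNA precursor Rn45s averaged 985 ± 177 CPM in shFam172a and 492 ± 78.2 CPM in shCtrl (SD, n = 3). Depth, unassigned pairs and Rn45s thus moved with the hairpin, and their part in the differences below was not tested beyond the thinning to equal depth given there. Of 13 sympathoadrenal markers of the line, 11 were tested, of which 6 were called higher and 1 lower at an adjusted p under 0.05. Over all 12820 genes tested, 17.5% were called higher and 18.6% lower, so the marker count is not read as a result about the line. The 13 summed to 1365 to 1382 CPM in shFam172a and 1316 to 1326 CPM in shCtrl. Of 9 markers of arcuate pro-opiomelanocortin neurons, Pomc, Cartpt and Glp1r were tested, 0 were called, and Nkx2-1 and Mc3r were at 0 in every library. The summed level of those 9 was 11.2 to 12.7 CPM in shFam172a and 10.7 to 12.8 CPM in shCtrl, and 6 of the 9 stayed under the filter on low counts. The 8 fibroblast markers summed to 9.89 to 12.2 CPM in shFam172a and 11.5 to 12.9 CPM in shCtrl, with 0 called. The 8 macrophage markers summed to 1.34 to 1.48 CPM in shFam172a and 0.623 to 1.46 CPM in shCtrl, with Ptprc, Itgam and Cx3cr1 at 0; the 1 tested, Cd68, was called higher. The 8 astrocyte and oligodendrocyte markers summed to 28.2 to 33.4 CPM in shFam172a and 26.9 to 29.1 CPM in shCtrl, with Aqp4 and Olig1 at 0 and 0 called. The part of these marker differences in the results was not tested.

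Neuro2a cells carried transcripts for nearly the whole insulin branch, while Lepr and Foxo1 had almost no counts. Which annotation was counted is not given in the sources used here, so whether it kept all reads from Lepr and Foxo1 was not tested. Of the 10 genes, 8 passed the filter on low counts and 2, Lepr and Foxo1, did not. Of the 8 tested, Insr, Igf1r and Irs1 rose, Socs3 fell, and Irs2, Jak2, Stat3 and Ptpn1 did not pass. Across all 12820 genes tested, 36.1% were called at an adjusted p under 0.05, with 17.5% higher and 18.6% lower in shFam172a. The 4 of 8 members called are read against that share and are not a result about the set. How many of all genes tested lacked overlap between the groups was not counted. Non-overlap below therefore only describes the libraries of a gene. All differences of the 8 tested members were small, with 0 of them changing by 2-fold or more. Lepr and Foxo1 are not in that count and are described below. The median log2 fold change of the 8 was 0.07, beside -0.00030 over all genes tested.

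**Figure D1:**
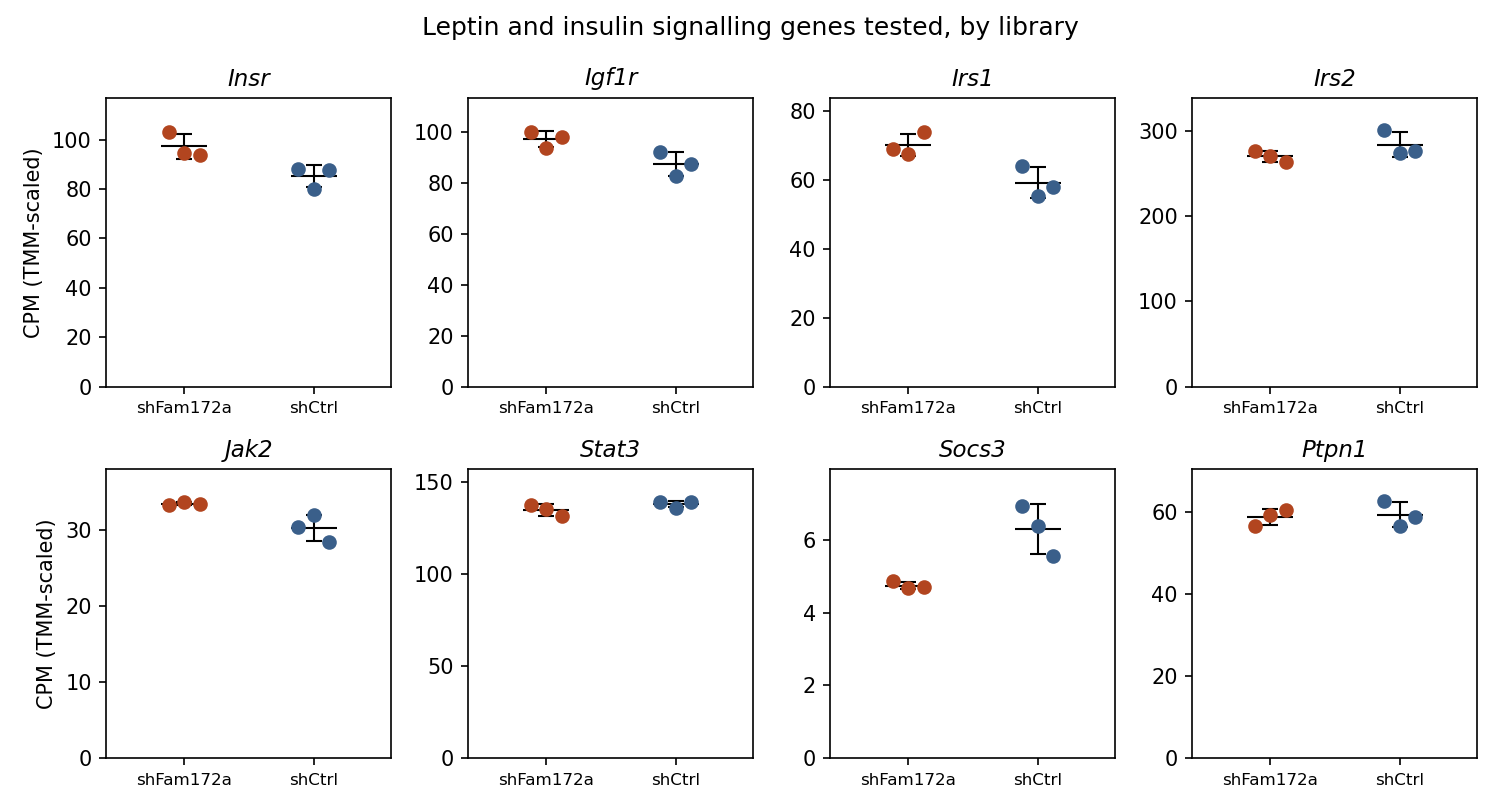
CPM (y axes, each starting at 0) of the 8 tested genes in each library, with shFam172a left of shCtrl; points are libraries, the horizontal bar is the mean and the error bar 1 SD (n = 3). Insr, Igf1r, Irs1 and Jak2 lay higher in all 3 shFam172a libraries than in any shCtrl library, Socs3 lay lower, and Irs2, Stat3 and Ptpn1 overlapped. The share of all genes tested without overlap was not counted.

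The leptin receptor gene, Lepr, was barely detected. Lepr (ENSMUSG00000057722.17) occupies bases 101717404 to 101815352 of the plus strand of chromosome 4 (GRCm38), and no other GENCODE M21 gene overlaps its exons. It had 1, 0 and 2 counts in the shFam172a libraries, against 6, 4 and 1 counts in the shCtrl libraries. These sums of 3 and 11 counts correspond to 0.0445 CPM (exact Poisson 95% interval 0.0092 to 0.130) in shFam172a and 0.308 CPM (0.154 to 0.551) in shCtrl, before TMM scaling and with counting error only. The groups overlapped, since shFam172a replicate 3 and shCtrl replicate 3 both stood at about 0.09 CPM (0.090 and 0.089). The ratio of the summed rates, shFam172a over shCtrl, was 0.145 with an interval of 0.026 to 0.547. Without shCtrl replicate 1, which held 6 of the 11 counts, the ratio was 0.214 with an interval of 0.033 to 1.10. In edgeR with no filter, Lepr was called lower (log2 fold change -2.59, edgeR adjusted p = 0.037), and DESeq2 gave it no adjusted p. The difference rests on few counts, 6 of them in shCtrl replicate 1.

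The neighbour Leprot, which encodes endospanin-1, a protein that keeps leptin receptors from the cell surface, was measured well. It stood at 25.9, 28.3 and 26.9 CPM in shFam172a, against 25.2, 28.3 and 24.0 CPM in shCtrl, a log2 fold change of 0.06 with a 95% interval of -0.079 to 0.20 (adjusted p = 0.52). Lep, the hormone gene, had at most 1 count in any library.

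The insulin receptor gene, Insr, rose. It occupies bases 3122061 to 3279617 of the minus strand of chromosome 8 and has 23 merged exons. Insr stood at 103, 94.7 and 93.8 CPM in shFam172a, against 88.1, 79.9 and 87.6 CPM in shCtrl, from 989 to 2226 counts per library. Every shFam172a library was above every shCtrl library. The log2 fold change was 0.19 ± 0.044 (SE, adjusted p = 7.4e-04), or 14.2% more, and the call held under all 17 alternative settings, which gave 0.13 to 0.22.

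Igf1r, which encodes the receptor for insulin-like growth factors, rose by a similar amount. Its locus is on chromosome 7 at 67952827 to 68233668, on the plus strand. Igf1r stood at 99.9, 93.9 and 98.0 CPM in shFam172a, against 91.997, 82.6 and 87.4 CPM in shCtrl. The groups did not overlap, and the nearest libraries were 93.9 in shFam172a and 91.997 in shCtrl. The log2 fold change was 0.16 ± 0.042 (adjusted p = 0.0034). The call was lost once exon length and GC were corrected for, at 0.058 with adjusted p = 0.28, and without shCtrl replicate 2, at 0.12 with adjusted p = 0.061. Igf1r has the longest merged exons of the 10 genes, 16791 bases.

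Of the adaptors, Irs1 rose and Irs2 did not pass. Irs1 lies on chromosome 1 at 82233101 to 82291416, on the minus strand. Irs1 stood at 68.9, 67.6 and 73.8 CPM in shFam172a, against 64.0, 55.4 and 58.0 CPM in shCtrl. Its log2 fold change of 0.25 ± 0.050 (adjusted p = 1.5e-04), or 18.6% more, was the largest rise among the tested members. Irs1 stayed called under all 17 alternatives, at 0.20 to 0.31. In GENCODE M21, 30.9% of its exon length is also covered by Gm9747 on the opposite strand, of which no value was analysed here. The strand setting of the counting is not given in the sources used here, so the Irs1 value is uncertain to that extent.

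Irs2 was the most abundant member per length. It lies on chromosome 8 at 10984681 to 11008458, on the minus strand. Irs2 stood at 277, 271 and 264 CPM in shFam172a, against 301, 274 and 277 CPM in shCtrl. The groups overlapped. The log2 fold change was -0.07 ± 0.032, with a 95% interval of -0.13 to -0.0035 (adjusted p = 0.094). With the length and GC correction it was called lower, at -0.14 with adjusted p = 2.7e-04, and without shCtrl replicate 2 it was called at -0.093 with adjusted p = 0.048.

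The kinase gene Jak2, on chromosome 19 at 29251828 to 29313080, leaned upward without passing. Jak2 stood at 33.3, 33.7 and 33.4 CPM in shFam172a, against 30.4, 31.9 and 28.4 CPM in shCtrl. The groups did not overlap, and the shFam172a libraries lay closer together. The log2 fold change was 0.14 ± 0.062, with a 95% interval of 0.018 to 0.27 (adjusted p = 0.067). It was called higher under 5 of 17 alternatives, with adjusted p = 0.020 after the length and GC correction and adjusted p = 0.049 without shCtrl replicate 2.

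Stat3, the transcription factor downstream of JAK2, lies on chromosome 11 at 100885098 to 100939540, on the minus strand. Stat3 stood at 138, 136 and 131 CPM in shFam172a, against 139, 136 and 139 CPM in shCtrl, and the groups overlapped. Its log2 fold change was -0.03 ± 0.035, with a 95% interval of -0.10 to 0.037 (adjusted p = 0.48). With the length and GC correction it was called at -0.10 with adjusted p = 0.016.

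Foxo1 had almost no counts in this table. It lies on chromosome 3 at 52268336 to 52353221, on the plus strand, and had 1, 0 and 3 counts in shFam172a libraries, against 1, 0 and 0 counts in shCtrl libraries. Its summed rate was 0.0594 CPM (0.016 to 0.152) in shFam172a and 0.028 CPM (0.00071 to 0.156) in shCtrl, and a difference was not detectable at this depth. An antisense gene, Gm20402, covers 7.78% of its exon length. Its paralog Foxo3, which is controlled by AKT in the same way, was abundant and is described with the pathway genes.

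Socs3, the feedback inhibitor, fell. It lies on chromosome 11 at 117966079 to 117970047, on the minus strand. Socs3 had 105, 109 and 105 counts in shFam172a and 81, 82 and 63 counts in shCtrl, which after scaling were 4.87, 4.67 and 4.72 CPM in shFam172a, against 6.94, 6.39 and 5.58 CPM in shCtrl. All 3 shFam172a libraries lay below all 3 shCtrl libraries. The log2 fold change was -0.41 ± 0.14 (adjusted p = 0.022), or 0.753-fold, the largest difference among the tested members in either direction and also the least precise. The call was lost with DESeq2 (adjusted p = 0.097) and with shFam172a thinned to the depth of shCtrl (-0.37, adjusted p = 0.066). The thinning was a random draw of counts that was not repeated. The Socs3 call was also lost without shFam172a replicate 2 (adjusted p = 0.051), shCtrl replicate 1 (-0.34, adjusted p = 0.12) or shCtrl replicate 2 (adjusted p = 0.069).

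Ptpn1, which encodes the phosphatase PTP1B, did not pass. It lies on chromosome 2 at 167932057 to 167979385, on the plus strand. Ptpn1 stood at 56.7, 59.4 and 60.5 CPM in shFam172a, against 62.6, 56.6 and 58.7 CPM in shCtrl, and the groups overlapped. Its log2 fold change was -0.0091 ± 0.049, with a 95% interval of -0.11 to 0.089 (adjusted p = 0.91), and its sign turned under 4 of 17 alternatives.

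**Figure D2:**
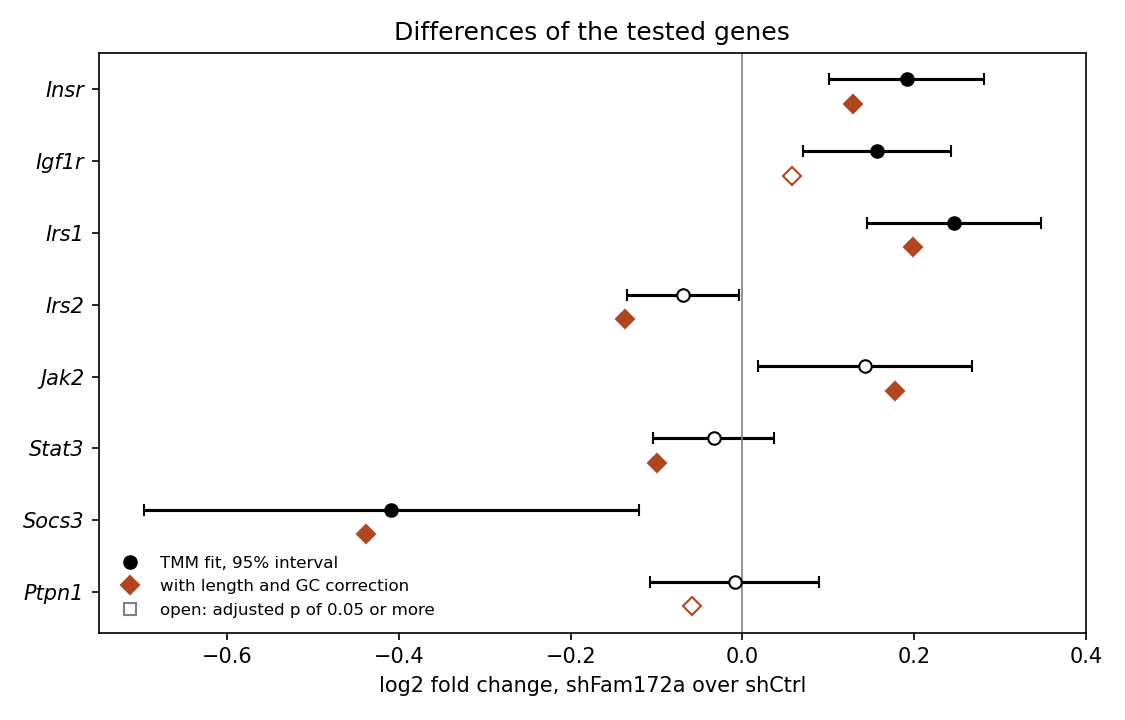
Log2 fold change of shFam172a over shCtrl (x axis) for the 8 tested genes; circles are the TMM fit with its 95% interval, diamonds the fit corrected for transcript length and GC, and open symbols have an adjusted p of 0.05 or more. Insr, Irs1 and Socs3 are filled in both fits, while Igf1r is filled only in the first and Irs2, Jak2 and Stat3 only in the second.

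Pairs of members, at the same step or, for Stat3 and Jak2, at successive steps, were compared by the log2 ratio of their CPM (pseudocount 0.5) in each library. Between 3 and 3 libraries the exact permutation test cannot go below p = 0.10, so 0 of the 4 pairs could pass. The Irs1 to Irs2 log2 ratio averaged -1.94 ± 0.094 in shFam172a and -2.26 ± 0.039 in shCtrl (SD, n = 3). The groups did not overlap, with a difference of 0.31 (two-sided exact p = 0.10, adjusted over the 4 pairs p = 0.13). The Socs3 to Ptpn1 log2 ratio averaged -3.50 ± 0.073 in shFam172a and -3.14 ± 0.126 in shCtrl (SD, n = 3), a difference of -0.36 without overlap (exact p = 0.10, adjusted p = 0.13). The Stat3 to Jak2 log2 ratio averaged 1.99 ± 0.036 in shFam172a and 2.17 ± 0.098 in shCtrl, a difference of -0.18 without overlap (exact p = 0.10, adjusted p = 0.13). The Insr to Igf1r log2 ratio differed least between the groups. It averaged -0.0014 ± 0.056 in shFam172a and -0.035 ± 0.035 in shCtrl, with overlap (exact p = 0.50, adjusted p = 0.50). No test compared one pair with another, and the ratios were not computed with the length and GC correction.

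Levels of different genes were compared as CPM per kilobase of merged exon in GENCODE M21. Irs2 led in both groups, at 42.8 CPM per kb in shFam172a and 44.9 CPM per kb in shCtrl. Stat3 followed at 14.2 CPM per kb in shFam172a and 14.5 in shCtrl, and Ptpn1 at 10.6 in shFam172a and 10.7 in shCtrl. Irs2 thus stood well above its relative Irs1, which was at 7.67 CPM per kb in shFam172a and 6.47 CPM per kb in shCtrl. Insr was at 7.07 CPM per kb in shFam172a and 6.20 in shCtrl, and Jak2 at 6.66 in shFam172a and 6.02 in shCtrl. Irs1 and Insr overlapped between libraries in both groups, and Insr and Jak2 overlapped in shCtrl. Igf1r ran from 5.59 to 5.95 CPM per kb in shFam172a and from 4.92 to 5.48 in shCtrl, and Socs3 at 1.64 in shFam172a and 2.18 in shCtrl, each apart from its neighbours in the order. Lepr and Foxo1 came last, at no more than 0.073 CPM per kb in any library.

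**Figure D3:**
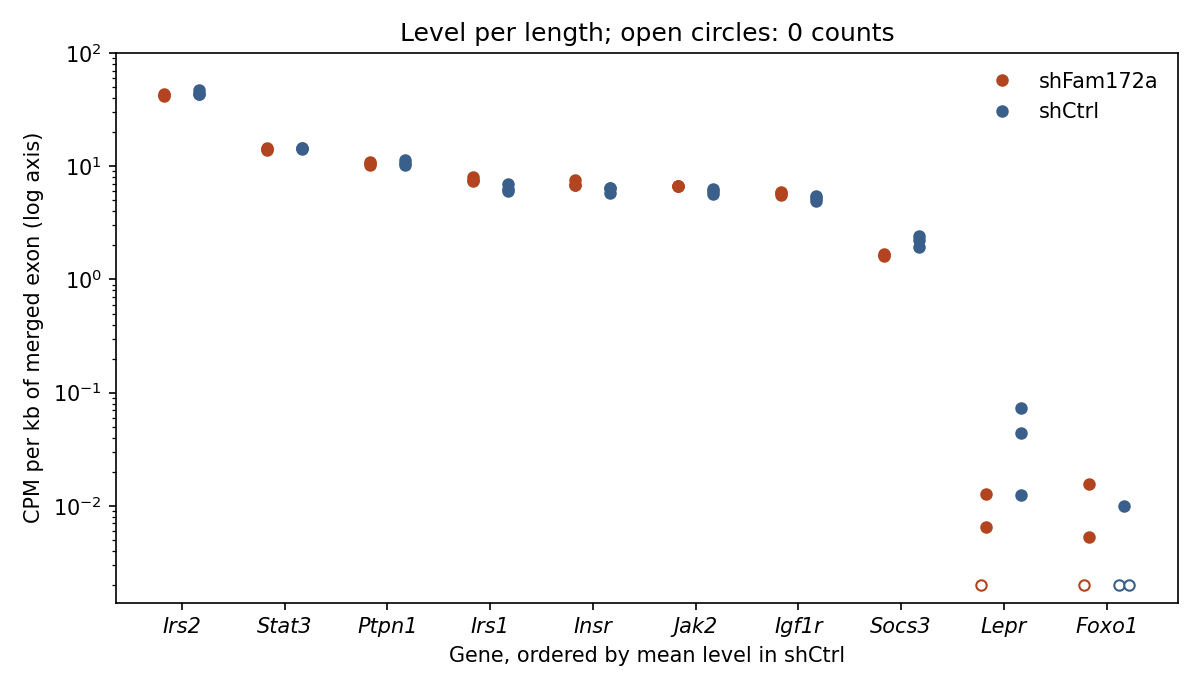
CPM per kb of merged exon (log axis) of all 10 genes in each library, ordered by the shCtrl mean, with shFam172a left of shCtrl; open circles at the bottom mark libraries with 0 counts. Irs2 lies highest at 42.8 CPM per kb in shFam172a and 44.9 in shCtrl, and Lepr and Foxo1 lie at no more than 0.073 CPM per kb in any library.

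Around the members, lists of pathway genes were counted, each to be read against the 36.1% called over all genes tested. Of 17 relay genes of leptin and related cytokines, 13 were tested and Lep, Lifr, Osmr and Il6ra were under the filter. Of the 13, 3 rose, 1 fell and 9 did not pass (30.8% called, median log2 fold change 0.06). Ptpn11, which encodes the phosphatase SHP2 that docks on the leptin receptor, stood at 207, 215 and 221 CPM in shFam172a, against 183, 191 and 185 CPM in shCtrl (log2 fold change 0.20 ± 0.033, adjusted p = 4.4e-06). Il6st, the shared receptor subunit gp130 of cytokines such as ciliary neurotrophic factor, was at 0.15 ± 0.042 (adjusted p = 0.0050), and at 0.10 with adjusted p = 0.058 under the length and GC correction joined with a replicate block. The kinase gene Tyk2 was at 0.20 ± 0.073 (adjusted p = 0.030) with overlapping groups. Its call was lost with DESeq2 (adjusted p = 0.11), after the length and GC correction (0.12, adjusted p = 0.20) and without shFam172a replicate 2 (adjusted p = 0.15) or 3 (adjusted p = 0.066) or shCtrl replicate 2 (adjusted p = 0.097) or 3 (adjusted p = 0.11). Leprotl1, a relative of Leprot, fell, at 157 ± 0.385 CPM in shFam172a and 181 ± 4.62 CPM in shCtrl (SD, n = 3; -0.21 ± 0.032, adjusted p = 2.0e-06). Lifr had 0 counts in all 6 libraries, and Osmr had at most 1.

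Among ligands, binding proteins and other receptors of the insulin family, 10 of 18 genes were tested, 4 rose, 1 fell and 5 did not pass (5 of 10 called, median 0.23). The hormone genes Ins1, Ins2 and Igf1 were listed at 0 in every library. Igfbp5 and Igfbp2 encode secreted proteins that bind insulin-like growth factors. Igfbp5 stood at 289, 280 and 278 CPM in shFam172a, against 232, 236 and 239 CPM in shCtrl (0.26 ± 0.030, adjusted p = 7.2e-09). Igfbp2 stood at 24.4, 25.0 and 22.6 CPM in shFam172a, against 18.2, 16.98 and 19.3 CPM in shCtrl (0.41 ± 0.076, adjusted p = 5.1e-05). Furin, the protease that cuts the insulin receptor precursor, rose by 0.23 ± 0.044 (adjusted p = 5.8e-05), and by 0.14 with the length and GC correction. Ide, the insulin-degrading enzyme, was the member of the list that fell, at 186 ± 9.31 CPM in shFam172a and 213 ± 4.24 CPM in shCtrl (-0.20 ± 0.034, adjusted p = 1.3e-05).

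Adaptors and the phosphoinositide 3-kinase to AKT step had 9 higher, 1 lower and 9 not passing of 19 tested from 22 (52.6% called, median 0.05). Foxo3 stood apart in size, at 43.6, 44.7 and 48.9 CPM in shFam172a, against 31.0, 28.0 and 31.0 CPM in shCtrl. Its log2 fold change was 0.61 ± 0.061 (adjusted p = 2.6e-10), or 1.53-fold, and ranged from 0.56 to 0.64 over the alternatives. Gsk3b, the kinase that AKT restrains, was at 0.20 ± 0.030 (adjusted p = 1.5e-06), and the adaptor Shc1 at 0.20 ± 0.038 (adjusted p = 4.4e-05). Foxo4 was at -0.16 ± 0.063 (adjusted p = 0.044), a call lost under 8 of 17 alternatives, among them DESeq2 (adjusted p = 0.15) and the fits without shFam172a replicate 3 (-0.10, adjusted p = 0.22) or without shCtrl replicate 1 (adjusted p = 0.083), 2 (adjusted p = 0.071) or 3 (adjusted p = 0.15).

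The mTOR arm couples insulin signalling to protein synthesis. All 15 genes were tested, with 4 higher, 5 lower and 6 not passing (60.0% called, median -0.00092), beside 17.5% higher and 18.6% lower over all genes. Deptor, an inhibitor that binds mTOR, stood at 84.8, 81.7 and 79.9 CPM in shFam172a, against 126, 121 and 137 CPM in shCtrl (-0.64 ± 0.042, adjusted p = 2.3e-15). Eif4ebp2, a translation repressor that mTOR switches off, stood at 51.9, 50.6 and 58.3 CPM in shFam172a, against 75.8, 73.6 and 76.2 CPM in shCtrl (-0.49 ± 0.050, adjusted p = 3.6e-10). Both differences exceeded those of all tested members in size. Rictor and Rptor encode the defining subunits of mTOR complexes 2 and 1. Rictor rose by 0.23 ± 0.032 (adjusted p = 4.8e-07). Rptor was at 0.15 ± 0.042 (adjusted p = 0.0054), but at 0.016 with adjusted p = 0.80 after the length and GC correction and at 0.11 with adjusted p = 0.073 without shCtrl replicate 2. Of the partners of the tuberous sclerosis complex, Tsc1 was at 0.23 ± 0.046 (adjusted p = 1.3e-04) and Tsc2 at -0.16 ± 0.044 (adjusted p = 0.0041). With the length and GC correction Tsc1 was at 0.15 and Tsc2 at -0.24. The difference between Tsc1 and Tsc2 was not tested.

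Other damping proteins had 6 higher, 3 lower and 16 not passing of 25 tested from 27 (36.0% called, median 0.09). Of the other SOCS genes, which were named after their values were seen, Socs7 rose by 0.24 ± 0.043 (adjusted p = 2.9e-05), and Socs1, Socs2, Socs4, Socs5, Socs6 and the related Cish did not pass. The receptor-type phosphatase gene Ptprs was at 0.27 ± 0.041 (adjusted p = 1.4e-06) and Ptprj at 0.20 ± 0.039 (adjusted p = 7.5e-05). With the length and GC correction Ptprs was at 0.093 with adjusted p = 0.043. Sh2b3, an adaptor that restrains JAK2, fell to 74.7 ± 3.92 CPM in shFam172a, against 89.3 ± 1.54 CPM in shCtrl (-0.26 ± 0.043, adjusted p = 1.1e-05). Trib3, which binds AKT, was at -0.14 ± 0.037 (adjusted p = 0.0033). Dok1 was at -0.24 ± 0.083 (adjusted p = 0.021), a call lost with DESeq2 (adjusted p = 0.093) and without shFam172a replicate 3 (adjusted p = 0.13), shCtrl replicate 1 (adjusted p = 0.059) or shCtrl replicate 2 (adjusted p = 0.063).

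Genes reported as targets of FOXO1 or STAT3 were listed to set beside the regulators. Of 21 FOXO1 targets tested from 26, 4 rose, 2 fell and 15 did not pass (28.6% called, median 0.04). Ccng2, an atypical cyclin of resting cells, stood at 92.3, 86.5 and 78.2 CPM in shFam172a, against 58.3, 52.3 and 52.8 CPM in shCtrl (0.65 ± 0.055, adjusted p = 3.4e-11). Cdkn1a, the cell cycle inhibitor p21, was at 0.34 ± 0.048 (adjusted p = 7.9e-07), and the mitophagy kinase Pink1 at 0.35 ± 0.082 (adjusted p = 7.8e-04). The mitochondrial superoxide dismutase Sod2 was at -0.13 ± 0.037 (adjusted p = 0.0037). Sesn1 was at -0.17 ± 0.062 (adjusted p = 0.031), a call lost under 10 of 17 alternatives, among them leaving out shFam172a replicate 1 (adjusted p = 0.063) or 2 (adjusted p = 0.12) or shCtrl replicate 1 (adjusted p = 0.092), 2 (adjusted p = 0.080) or 3 (adjusted p = 0.060). Pck1, Igfbp1 and Pdk4, well known FOXO1 targets of liver or muscle, had 0 counts in all libraries. These targets are shared with other FOXO proteins, and Foxo1 itself was near 0. Whether any FOXO protein had a part in these differences was not tested.

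Of 18 STAT3 targets tested from 21, 2 rose, 2 fell and 14 did not pass (22.2% called, median -0.06). Vegfa, the vascular growth factor, stood at 378, 369 and 369 CPM in shFam172a, against 280, 261 and 261 CPM in shCtrl (0.47 ± 0.030, adjusted p = 1.4e-15). Fos was at 0.44 ± 0.11 (adjusted p = 0.0019), and the survivin gene Birc5 at -0.32 ± 0.036 (adjusted p = 4.3e-09). Hif1a was at -0.11 ± 0.031 (adjusted p = 0.0046), at -0.073 with the length and GC correction, and without shCtrl replicate 1 at -0.080 with adjusted p = 0.060. Vegfa, Fos and Birc5 are also known targets of other factors.

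**Figure D4:**
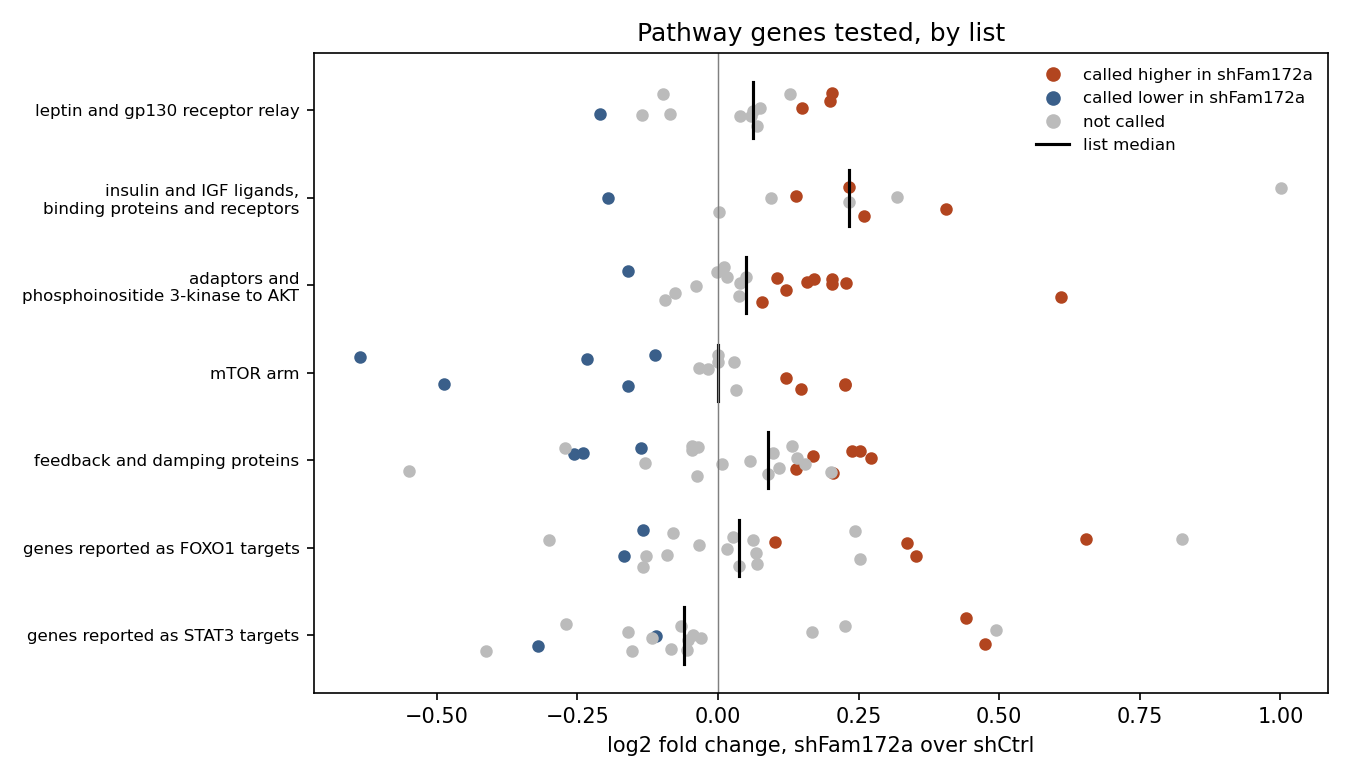
Log2 fold change of shFam172a over shCtrl (x axis) for each tested gene of the 7 lists (rows); each point is a gene, coloured by call, and the black bar is the list median. The list medians run from -0.06 for STAT3 targets to 0.23 for ligands and binding proteins, and Foxo3, Ccng2, Deptor and Eif4ebp2 are the called genes furthest from 0.

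The genes whose library pattern was most like that of Irs1 were Pdlim5, Gprin1 and Arl10, with Pearson r of 0.995, 0.993 and 0.993 over the 6 libraries among 9166 genes. For Socs3 they were Tufm, Pde1c and Lactb2, with r of 0.997, 0.994 and 0.994 among 9167 genes. Such values describe 6 points that share group and depth, and 161 genes for Irs1 and 152 for Socs3 had r above 0.95.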

How the data were processed

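The authors deposited raw counts per gene symbol from paired-end RNA-seq. The submitters' processing notes name HISAT2 2.0.5, HTSeq and mm10; neither annotation nor strand setting is stated there. Single-sample tables held the same values as the series table (0 differed). The 5 rows that name no gene entered neither library sizes nor tests. In shFam172a, 17.2% to 17.9% of the total fell in no gene, 9.99% to 10.4% had several alignments, 4.46% to 7.12% low alignment quality, 1.74% to 1.87% were ambiguous and 0.780% to 1.10% not aligned. In shCtrl these were 16.4% to 16.6%, 9.58% to 9.71%, 4.83% to 5.83%, 1.77% to 1.83% and 0.722% to 0.914%, in that order.

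Counts were filtered with filterByExpr by group (12820 of 18128 genes with any count), TMM-scaled, and fitted in R 4.3.3 by the quasi-likelihood functions of edgeR 4.0.16 (glmQLFit, robust, then glmQLFTest), two-sided, with group as the sole term and Benjamini-Hochberg adjustment over all genes tested. The SE is the log2 fold change divided by the square root of F. Alternatives used DESeq2 1.42.0, limma 3.58.1 (voom), other scalings and filters, thinning, a replicate block, each library left out, and, added after the data were seen, an offset for merged exon length and GC (96.4% of genes tested had both). On simulated data the test recovered 24 of 50 genes changed 1.15-fold, 33 of 50 at 1.25-fold, 45 of 50 at 1.5-fold and 49 of 50 at 2-fold. It called 8 of 12620 unchanged genes. The simulation changed only 50 genes at each fold, drawn over genes of differing levels, while 36.1% of genes tested were called in the data. Its recovery therefore does not measure how often a change of a given member would be found. In the simulation, differences of 1.15-fold were thus often missed. Among the members, Insr was called at a log2 fold change of 0.19, or 14.2% more. Of the tested members that did not pass, Jak2 had an interval in the TMM fit that reached past 0.19 (0.018 to 0.27). The intervals of Irs2 (-0.13 to -0.0035), Stat3 (-0.10 to 0.037) and Ptpn1 (-0.11 to 0.089) held no difference of that size in either direction. A member that did not pass can still differ by an amount within its interval. Annotation was GENCODE M21 (GRCm38) and promoters were RefSeq's, with 9 of 10 members matched. Members, lists and motifs were chosen with earlier results of these data known. Named from each list were the 3 called genes of smallest p in each direction; for likeness, genes had a mean of at least 10 CPM.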

Additional observations from a re-analysis of the deposited data

How the results depend on the processing

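Insr and Irs1 kept their calls under all 17 alternatives, and the count of members higher was 3 or 4. With upper quartile scaling Jak2 was called at 0.16 (adjusted p = 0.043), Ptpn1 turned to 0.0049, and 0 genes were lower in the AKT list. With total count scaling 2 leptin relay genes were lower. With no filter 2 members were lower (Lepr being the second), with 0 in the AKT list and 1 FOXO1 target. With DESeq2 0 members were lower, Socs3 was at -0.41 (adjusted p = 0.097), and 0 AKT list genes and 1 FOXO1 target were lower. With thinning 0 members were lower, Socs3 was at -0.37, Jak2 was called at 0.18 (adjusted p = 0.035), Ptpn1 turned to 0.0064, and 2 leptin relay and 0 AKT list genes were lower. With the length and GC correction 3 members were lower, Igf1r was at 0.058, Irs2 at -0.14, Jak2 at 0.18 and Stat3 at -0.10, and 2 leptin relay genes, 2 AKT list genes, 1 FOXO1 target and 4 STAT3 targets were lower. The cause of these shifts was not tested.

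Deviations of same-numbered libraries from their group means correlated at -0.0054, -0.0038 and -0.0096, so no deviation shared by replicate number was seen. Libraries of different numbers were not compared in this way, and the values do not establish whether the samples were paired. The replicate block changed no member's call, with Irs1 at 0.25, Insr at 0.19, Igf1r at 0.16 and Socs3 at -0.41. Joined with the length and GC correction, the replicate block gave 3 members lower, Igf1r at 0.058, Irs2 at -0.14, Jak2 at 0.18, Stat3 at -0.10, 1 leptin relay gene higher and 2 lower, 2 AKT list genes lower and 1 FOXO1 target lower.

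Leaving out 1 library at a time gave 0 to 1 members lower, Socs3 from -0.48 to -0.34, Igf1r from 0.12 to 0.20, Irs2 from -0.093 to -0.025, Jak2 from 0.10 to 0.19 and Ptpn1 from -0.043 to 0.032 (turned to 0.018 without shFam172a replicate 1 and to 0.032 without shCtrl replicate 1). AKT list genes lower were 0 to 1 and FOXO1 targets lower 1 to 2. A group of 2 libraries then rests on a spread shared with the other. Lepr, Foxo1 and Socs3 had the fewest counts among the members. The part of depth in their values was not tested beyond the thinning, a random draw that was not repeated.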
